A study of Mus musculus with 18 samples.

Results

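The genes described here encode surface proteins by which muscle satellite cells are recognised or sorted. The set held 10 genes chosen by name: Vcam1, Cd34, Sdc3, Sdc4, Cdh15, Ncam1, Calcr, Chodl, Cav1 and Cd82. All 10 were found by symbol among the 47728 gene identifiers of the bulk RNA sequencing counts, and all 10 were among the 17571 genes tested. The bulk data held 15 mouse libraries in 5 groups of 3. The iPax3 and iPax7 groups were myogenic progenitors made from embryonic stem cells, taken as Vcam1+Flk1- cells of embryoid bodies and grown for 3 passages with Dox (doxycycline) and bFGF, so Vcam1 was itself a sorting criterion for these groups. The Emb and Fet groups were embryonic myoblasts at E10.5 and fetal myoblasts at E14.5 of the strain labelled My5Cre Rosa26YFP. That strain joins a Cre allele to a Rosa26 YFP reporter, so YFP marks cells in which the Cre is or has been active. The Neo group was neonatal satellite cells of hindlimb muscles at postnatal day 3 of Pax7-ZsGreen mice. Droplet single-cell sequencing covered Pax7-ZsGreen cells of the adult tibialis anterior at 3 months and iPax3 cells, with 1 library each. The labels did not say whether replicates came from separate cultures, litters or animals, so p-values measure the spread between these libraries, which may be technical.

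Satellite cells are the stem cells of skeletal muscle and lie between the fibre and its basement membrane. Their surface proteins hold them in place and carry signals from the fibre, the matrix and nearby vessels. Vcam1, an immunoglobulin-family ligand of integrins, Cdh15 (M-cadherin) and Ncam1 are adhesion molecules. Sdc3 and Sdc4 are syndecans, heparan sulphate proteoglycans that act as co-receptors for growth factors. Cd34 is a sialomucin of quiescent satellite cells that is also carried by endothelial, haematopoietic and mesenchymal cells. Calcr, the calcitonin receptor, takes part in keeping satellite cells quiescent. Chodl is a membrane protein with a lectin-like domain, Cav1 coats caveolae and is abundant in endothelium, and Cd82 is a tetraspanin.

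Total counts ranged from 516504 in Fet replicate 1 to 56275318 in iPax3 replicate 1. Pax3 was at 295 to 355 CPM (counts per 1e6 counts of the scaled library) in the iPax3 libraries and at 1.10 to 3.75 CPM in the iPax7 libraries. Pax7 was at 111 and 349 CPM in iPax7 replicates 2 and 3, but at 0.989 CPM in the library labelled iPax7 replicate 1. That library had a summed 4.80 CPM over 6 myogenic regulators, against 788 and 1001 CPM in the other iPax7 libraries. Its summed level of 9 pluripotency genes was 4626 CPM, against at most 58.8 CPM in the libraries of every other group. The Neo libraries, labelled as satellite cells, had Pax7 at 0.495 to 5.12 CPM. The summed level of 18 endothelial markers was 3219 to 4226 CPM in Neo and 313 to 728 CPM in Fet. It was 33.0 to 83.3 CPM in Emb, 24.9 to 31.8 CPM in iPax3 and 29.7 to 181 CPM in iPax7. In Neo, 0 of these 18 markers was without a count in any library. The 12 fibroblast markers summed to 26459 to 76143 CPM in Neo and 23790 to 27463 CPM in Fet, against at most 2277 CPM elsewhere. In bulk RNA, fewer cells of a type and less RNA per cell cannot be told apart.

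The 250 bases before the annotated start are printed for 4 members. Cd34, Chodl and Cav1 were the members that were higher in both Fet and Neo than in iPax3, and Sdc3 passed in no comparison. Cdh15 and Calcr, which are not printed, passed in no comparison either. They are RefSeq sequences of the GRCm38.p6 build, read 5' to 3' on the strand of the gene, with each CG dinucleotide in capitals. All 4 genes lie on the plus strand: the Cd34 stretch at chr1:194938571-194938820, that of Chodl at chr16:78930698-78930947, that of Cav1 at chr6:17306085-17306334 and that of Sdc3 at chr4:130792287-130792536.
Cd34: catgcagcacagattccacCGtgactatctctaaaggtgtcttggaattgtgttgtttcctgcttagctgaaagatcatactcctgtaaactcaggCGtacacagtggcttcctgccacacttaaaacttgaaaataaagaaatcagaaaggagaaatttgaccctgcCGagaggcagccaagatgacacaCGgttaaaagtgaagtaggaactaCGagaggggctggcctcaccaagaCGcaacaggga
Chodl: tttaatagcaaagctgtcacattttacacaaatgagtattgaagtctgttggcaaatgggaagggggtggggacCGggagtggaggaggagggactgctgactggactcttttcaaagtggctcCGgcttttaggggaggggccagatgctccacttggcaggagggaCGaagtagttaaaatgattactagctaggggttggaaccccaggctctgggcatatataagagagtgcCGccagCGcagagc
Cav1: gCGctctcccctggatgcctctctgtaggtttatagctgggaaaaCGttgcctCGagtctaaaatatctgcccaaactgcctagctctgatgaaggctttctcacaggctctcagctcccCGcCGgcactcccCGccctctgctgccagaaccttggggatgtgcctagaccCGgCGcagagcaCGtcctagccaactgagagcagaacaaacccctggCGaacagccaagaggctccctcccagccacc
Sdc3: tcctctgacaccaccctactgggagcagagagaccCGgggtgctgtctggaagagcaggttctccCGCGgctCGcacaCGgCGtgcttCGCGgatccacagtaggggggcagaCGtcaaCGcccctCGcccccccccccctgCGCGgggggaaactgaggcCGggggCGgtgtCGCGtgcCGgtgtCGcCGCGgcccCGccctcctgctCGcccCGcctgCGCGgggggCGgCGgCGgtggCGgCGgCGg
The Cd34, Chodl and Cav1 stretches held 6, 5 and 10 CG sites, against a median of 6 over 32851 promoters of the same length. Of those promoters, 50.4%, 55.6% and 37.8% held at least as many. The Sdc3 stretch held 32 CG sites, a number reached by 4.58% of promoters. This is not shared by the other members that passed in no comparison. The Cdh15 stretch held 5 CG sites (reached by 55.6% of promoters), and the Calcr stretches 24 (12.0%) and 2 (81.2%). The myogenic E-box motifs CAGCTG and CAGGTG were searched on both strands of windows that added 50 bases after the start. The first reads the same on both strands, and at least 1 of these motifs was in 32.9% of all promoters. They were in 4 of the 13 windows of the 8 members in the promoter table. All 4 were CAGGTG matches: in a pair of windows of Cd82, in a window of Calcr, and in a second start window of Cav1 that is not printed. The Cd34, Chodl, Sdc3, Sdc4 and Cdh15 windows held no match. Vcam1 and Ncam1 were not in that table.

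The 5 bulk groups differed in 7 of the 10 members by edgeR's quasi-likelihood test at an adjusted p under 0.05, against 29.8% of all genes tested. Members that passed were Vcam1, Cd34, Sdc4, Ncam1, Chodl, Cav1 and Cd82. Cd34, Sdc4, Ncam1 and Cav1 passed under all 21 alternatives, Chodl under 16 of 20, Vcam1 under 8 of 21 and Cd82 under 4 of 21. The count was 8 without iPax7 replicate 1 (31.8% of all genes), where Cdh15 also passed, and 4 without the Neo libraries (19.3%). It was also 4 without iPax3 replicate 1 (20.2%) and without iPax3 replicate 3 (20.5%). Scaled to exon length, the order of the mean levels differed between groups. In iPax3, Sdc4 led at 48.5 CPM per kilobase, followed by Vcam1 at 34.3, Cdh15 at 24.6, Cd82 at 16 and Sdc3 at 12.8. Chodl at 0.0947 and Cd34 at 0.0774 CPM per kilobase were at the end of that order. In Neo, Cav1 led at 397 CPM per kilobase, followed by Sdc4 at 92.5, Cd34 at 35.4 and Chodl at 15.7, and Cdh15 was at 4.18.

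**Figure D1:**
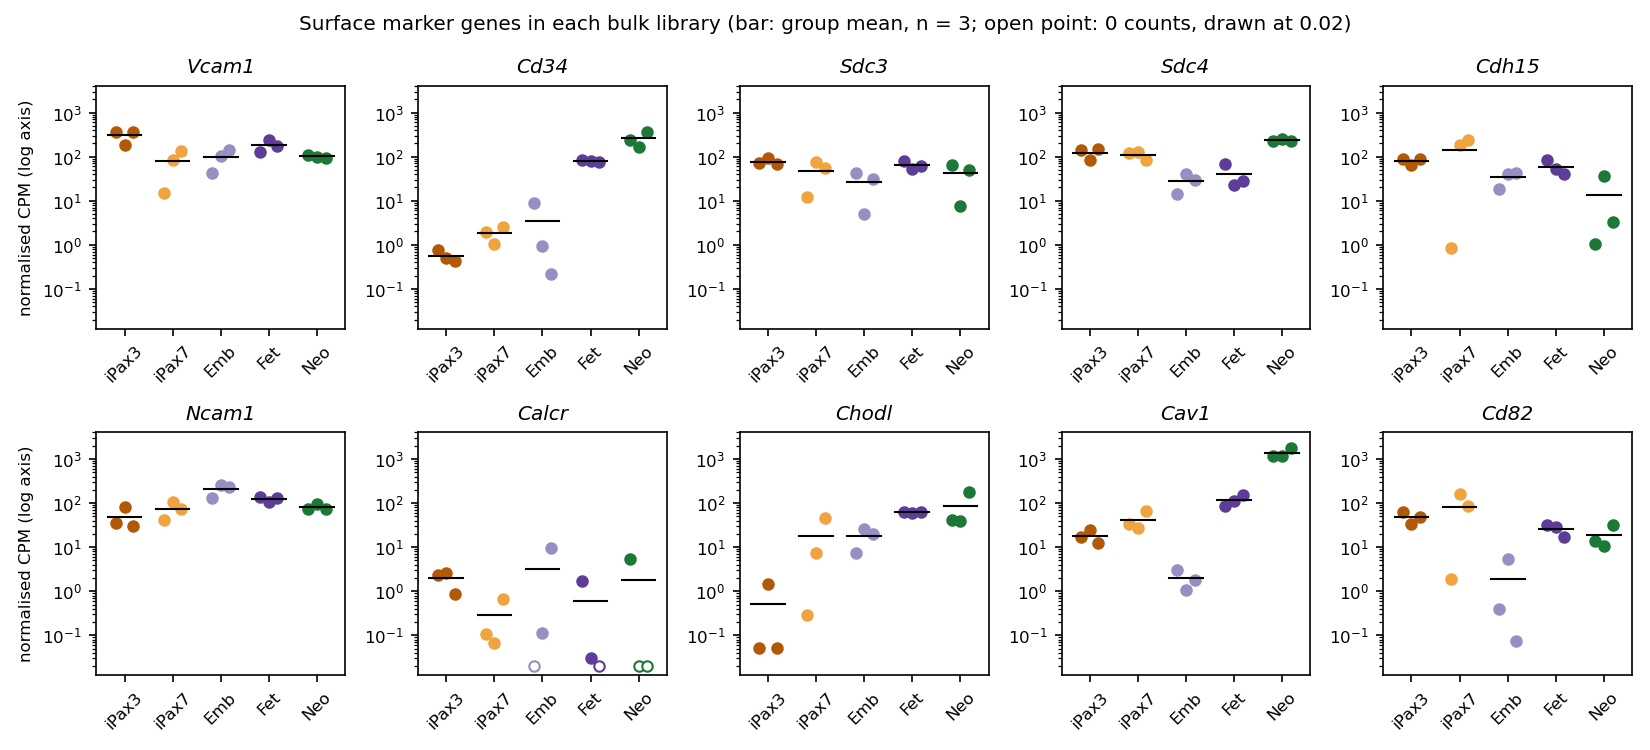
Normalised CPM of each of the 10 members on a log axis, with 1 point per library, grouped as iPax3, iPax7, Emb, Fet and Neo, and a bar at the mean of 3 libraries; open points are libraries with 0 counts. Cd34, Chodl and Cav1 are lowest in iPax3 or Emb and highest in Neo by their means, and a single iPax7 point, replicate 1, is far below the others of its group for Cdh15 and Cd82.

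Between pairs of groups, 29 of the 100 combinations of member and pair passed. Between iPax7 and iPax3, 0 of 10 members passed by edgeR, where 0.0740% of genes did (0.0569% higher and 0.0171% lower in iPax7), with 3 members at an unadjusted p under 0.05 and 0 called by DESeq2. Between Emb and iPax3, 6 members passed against 17.0% of genes (7.64% higher and 9.34% lower in Emb). Cd34, Ncam1 and Chodl were higher in Emb, and Sdc4, Cav1 and Cd82 were lower. The median log2 fold change of the members was -1.4, against -0.24 over all genes. Between Emb and iPax7, 4 members passed against 14.0% of genes (5.54% higher and 8.51% lower in Emb), with Ncam1 higher in Emb and Sdc4, Cav1 and Cd82 lower. Fitting those 2 groups alone left 2 calls for Emb against iPax3, where 17.5% of genes passed, and 0 for Emb against iPax7, where the share of all genes that passed was also lower, at 1.63%.

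Between Fet and iPax3, 4 members passed against 8.53% of genes (5.68% higher and 2.85% lower in Fet): Cd34, Chodl and Cav1 were higher in Fet and Sdc4 was lower. Fitting those groups alone gave 7 calls, but 38.1% of all genes then passed. Cd34 and Cav1 were also higher in Fet than in iPax7, as the 2 members called against 3.70% of genes (2.75% higher and 0.95% lower in Fet), and higher in Fet than in Emb, again as 2 calls against 3.65% of genes (2.89% higher and 0.763% lower in Fet). Between Neo and iPax3, 3 members passed against 22.6% of genes (11.3% in each direction), with Cd34, Chodl and Cav1 higher in Neo. Between Neo and iPax7, Cd34 and Cav1 were the 2 members that passed against 18.2% of genes (8.37% higher and 9.83% lower in Neo), and DESeq2 called 4, with 27.0% of genes. Between Neo and Emb, 4 members passed against 20.1% of genes (11.7% higher and 8.43% lower in Neo): Cd34, Sdc4 and Cav1 were higher and Ncam1 was lower. Between Neo and Fet, 2 members passed against 2.37% of genes (1.37% higher and 1.0% lower in Neo), Sdc4 and Cav1, both higher in Neo. Without the Neo libraries and iPax7 replicate 1 together, the calls of Cd34 and Cav1 for Fet over iPax7 were both lost. Pairs that have a group in common share its libraries, so their values are not independent.

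**Figure D2:**
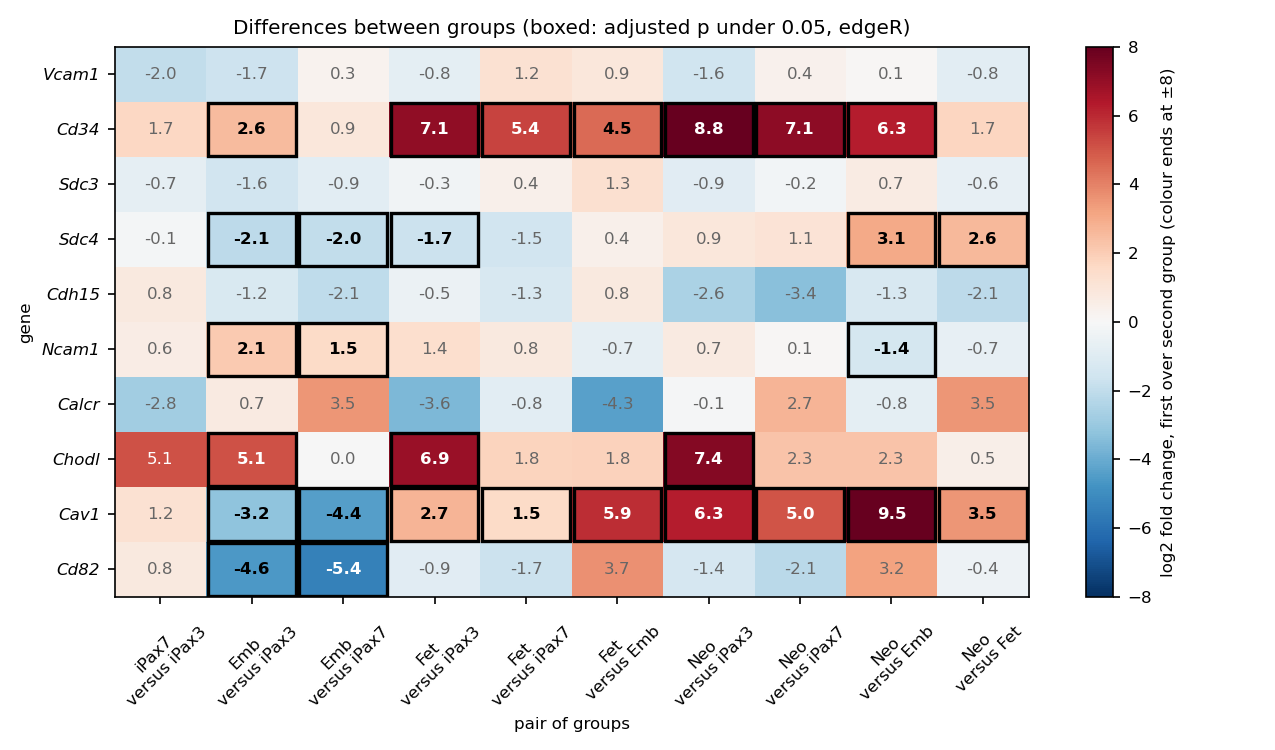
Log2 fold changes of the 10 members (rows) in the 10 pairs of groups (columns), as the first group over the second, from edgeR; red is higher and blue lower in the first group, and boxes mark an adjusted p under 0.05. Cd34 and Cav1 are boxed in red in every pair of Fet or Neo with iPax3, iPax7 or Emb, and the iPax7 versus iPax3 column has no box.

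Cd34 was nearly absent from the stem cell-derived groups and abundant in Fet and Neo. It was at 0.770, 0.501 and 0.422 CPM in the iPax3 libraries and at 1.94, 1.01 and 2.56 CPM in the iPax7 libraries. In Emb it was at 9.04, 0.915 and 0.221 CPM, so 1 library lay above all stem cell-derived libraries and another below them. Fet libraries were at 83.0, 78.6 and 75.0 CPM, and Neo libraries at 243, 166 and 364 CPM. All Fet and Neo libraries lay above all others. The log2 fold change was 7.1 (SE 1.0, adjusted p 2.83e-04) for Fet over iPax3 and 8.81 (SE 1.07, adjusted p 3.95e-05) for Neo over iPax3. Between Fet and Emb it was 4.55 (SE 0.89, adjusted p 0.0104), and this call was lost where those groups were fitted alone. Between Neo and Fet the log2 difference of 1.71 (SE 0.79) did not pass (adjusted p 0.243), although the libraries did not overlap. The call for Emb over iPax3, with a log2 fold change of 2.56 (SE 0.84, adjusted p 0.0466) and overlapping libraries, was kept in 2 of the 15 fits that left out a library, those without Emb replicate 2 or 3. Without Emb replicate 1 the log2 fold change was 0.01. An antisense gene at the Cd34 locus reached 8.73 CPM, and without a stated strand setting its reads cannot be told apart from those of Cd34. Podxl, a sialomucin of the same family, went the other way between Emb and iPax3. It was lower in Emb by 3.65 on the log2 scale (SE 1.08, adjusted p 0.0316), with means of 6.85 and 85.6 CPM. The 3 genes of that family, Cd34 among them, summed to 381 to 691 CPM in Neo and 57.1 to 123 CPM in iPax3.

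Chodl was at 0.0525, 1.45 and 0.0527 CPM in iPax3, where replicates 1 and 3 held 3 and 2 counts. In iPax7 it spread widely, with 0.293, 7.40 and 46.7 CPM. It was at 7.42, 25.7 and 19.8 CPM in Emb, at 64.0, 60.2 and 62.0 CPM in Fet and at 41.6, 39.5 and 178 CPM in Neo. All libraries of the tissue groups lay above all iPax3 libraries, while the iPax7 libraries overlapped with iPax3, Emb and Neo. The log2 fold change over iPax3 was 5.08 (SE 1.5, adjusted p 0.0306) in Emb, 6.89 (SE 1.62, adjusted p 0.0157) in Fet and 7.36 (SE 1.66, adjusted p 0.00590) in Neo. Leaving out iPax3 replicate 1 or 3 ended the calls for Emb and Fet, and leaving out Emb replicate 2 or 3 ended the call for Emb. Over these fits the adjusted p reached 0.115 for Emb and 0.0873 for Fet. The iPax7 group exceeded iPax3 by 5.11 on the log2 scale (SE 1.5), which did not pass (adjusted p 0.373). The related lectin Clec14a, known from endothelium, was higher in Fet than in iPax3 by 7.78 on the log2 scale (SE 1.58, adjusted p 0.00528).

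Cav1 had the widest spread between groups of the 10 members. Emb libraries were at 3.01, 1.09 and 1.77 CPM, iPax3 libraries at 16.8, 24.2 and 12.4 CPM and iPax7 libraries at 32.7, 26.8 and 65.1 CPM. Fet libraries were at 84.7, 114 and 152 CPM and Neo libraries at 1176, 1178 and 1743 CPM. No group overlapped with a neighbour in this order. Cav1 was lower in Emb than in iPax3 by 3.19 on the log2 scale (SE 0.44, adjusted p 1.53e-04). It was higher in Fet than in Emb by 5.92 (SE 0.49, adjusted p 5.03e-06) and higher in Neo than in Fet by 3.53 (SE 0.43, adjusted p 3.57e-04), both on the log2 scale. The step from iPax3 to iPax7, a log2 difference of 1.22 (SE 0.39), did not pass (adjusted p 0.456). The call for Fet over iPax7 (log2 fold change 1.51, SE 0.40, adjusted p 0.0451) was kept in 4 of the 15 fits that left out a library, those without iPax3 replicate 2, iPax7 replicate 3 or Emb replicate 1 or 2. Over these 15 fits its log2 fold change was 1.26 to 1.91 and its adjusted p at most 0.195.

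Caveolae need cavins as well as caveolins, and the 7 genes of that machinery, Cav1 itself among them, were read together. Against iPax3, 4 of 7 were lower in Emb, where 9.34% of all genes were. Cavin1, which shapes caveolae with Cav1, had means of 11.7 CPM in Emb and 356 CPM in iPax3, and was lower by 4.93 on the log2 scale (SE 0.57, adjusted p 4.02e-05). Cav2 was lower by 2.31 (SE 0.65, adjusted p 0.0234). The list's median log2 fold change was -3.19, against -0.24 over all genes. Between Neo and Emb, 5 of 7 were higher in Neo (11.7% of all genes) and 1, Cavin4, was lower (8.43% of all genes). Cav2 was higher by 7.2 on the log2 scale (SE 0.80, adjusted p 2.34e-05) and Cavin1 by 5.77 (SE 0.59, adjusted p 1.02e-05). The summed endothelial and fibroblast markers given above were highest in the same groups as Cd34 and Cav1, and their part in these results was not tested. The differences between Fet and iPax3 were called for Cd34 and Cav1 also in the fit without the Neo libraries. That fit keeps the Fet libraries, whose marker sums are given above, so it does not bear on the part of those markers.

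**Figure D3:**
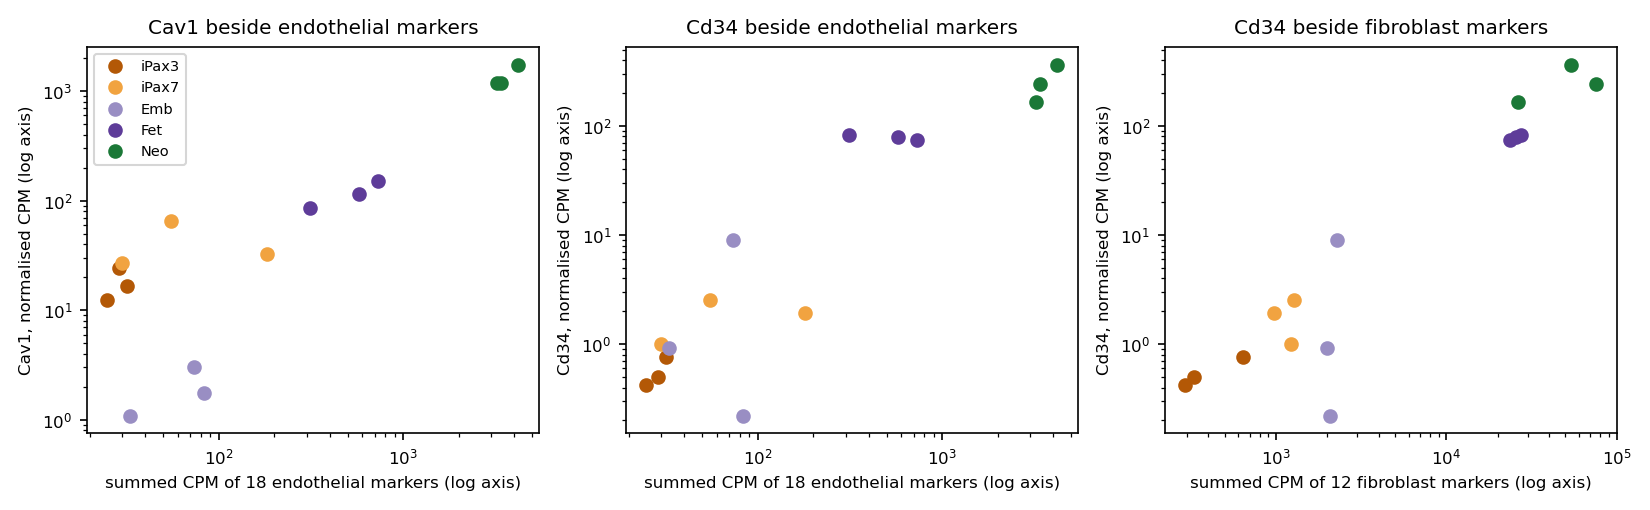
Each point is a bulk library; the x axes give the summed CPM of 18 endothelial or 12 fibroblast markers and the y axes the normalised CPM of Cav1 or Cd34, all on log axes. Neo libraries, at 3219 to 4226 CPM of endothelial markers, have the highest Cav1 and Cd34, and Fet libraries, at 313 to 728 CPM, follow.

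Cd82 was low in embryonic myoblasts. Its Emb libraries were at 0.386, 5.38 and 0.0736 CPM, below the iPax3 libraries at 61.5, 33.7 and 49.0 CPM. Fet libraries were at 31.1, 28.5 and 17.0 CPM and Neo libraries at 14.1, 10.4 and 31.9 CPM, all above Emb. The iPax7 libraries were at 159 and 87.4 CPM in replicates 2 and 3 and at 1.94 CPM in replicate 1, which overlapped with Emb. Cd82 was lower in Emb than in iPax3 by 4.60 on the log2 scale (SE 1.32, adjusted p 0.0264) and lower than in iPax7 by 5.39 (SE 1.37, adjusted p 0.0187). The call against iPax3 was lost without iPax3 replicate 1 or 3 and without Emb replicate 1 or 3, with an adjusted p of at most 0.0691. The call against iPax7 was lost without iPax7 replicate 2 (adjusted p 0.0525). The rise from Emb to Fet, 3.68 on the log2 scale (SE 1.28), did not pass (adjusted p 0.103), but did without iPax7 replicate 1 (adjusted p 0.0370), and also without Emb replicate 2. That of Neo over Emb, 3.24 (SE 1.25), did not pass either (adjusted p 0.0755), and passed without iPax7 replicate 1 (adjusted p 0.0242) and without Emb replicate 2.

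Of 8 tetraspanins, the member Cd82 among them, 5 were lower in Emb than in iPax3, against 9.34% of all genes. These were Cd151, Cd63, Cd9, Cd82 and Cd81. Cd151, a partner of laminin-binding integrins, had means of 0.385 CPM in Emb and 110 CPM in iPax3 and was lower by 8.20 on the log2 scale (SE 1.16, adjusted p 1.96e-04). Cd9, known for its part in cell fusion, was lower by 1.93 (SE 0.53, adjusted p 0.02). Between Neo and Emb, 5 of 8 were higher in Neo, against 11.7% of all genes, with Cd9 higher by 5.34 on the log2 scale (SE 0.61, adjusted p 2.96e-05) and means of 1089.9 and 26.9 CPM. Cd53 and Cd37 among these 5 are tetraspanins of leukocytes, and the 10 immune markers summed to 220 to 748 CPM in Neo and at most 1.5 CPM in Emb. Their part in this count was not tested.

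Sdc4 was highest in Neo and lowest in Emb and Fet. Neo libraries were at 230.3, 249.9 and 227 CPM, above all others. The iPax3 libraries were at 139, 82.4 and 149 CPM and the iPax7 libraries at 123, 125 and 85.0 CPM, which overlapped. Emb libraries were at 14.4, 41.0 and 29.6 CPM and Fet libraries at 69.2, 23.2 and 28.4 CPM, all below the stem cell-derived libraries. Sdc4 was lower in Emb than in iPax3 by 2.12 on the log2 scale (SE 0.43, adjusted p 0.00369) and than in iPax7 by 1.97 (SE 0.43, adjusted p 0.00784). It was higher in Neo than in Emb by 3.06 (SE 0.45, adjusted p 2.85e-04) and than in Fet by 2.62 (SE 0.45, adjusted p 0.00546). The call for Fet below iPax3, a log2 fold change of -1.69 (SE 0.44, adjusted p 0.0241), was lost without iPax3 replicate 1 or 3, without Fet replicate 2 or 3, and without the Neo libraries. Leaving out Fet replicate 2 or 3 also ended the call for Neo over Fet, with an adjusted p of at most 0.0529. The lower level in Fet than in iPax7 did not pass, but did under 5 of the 22 alternatives. Against iPax3, the Neo group differed by 0.93 on the log2 scale (SE 0.42), which did not pass (adjusted p 0.117).

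Sdc3 was not called in any pair. It ran from 66.8 to 91.1 CPM in iPax3 and from 51.6 to 79.5 CPM in Fet, which overlapped. The other groups each had a low library: 12.0 CPM in iPax7 replicate 1, 4.92 CPM in Emb replicate 2 and 7.67 CPM in Neo replicate 2. The largest difference, Emb below iPax3 by 1.56 on the log2 scale (SE 0.77), had an adjusted p of 0.175. Sdc1, another of the 4 syndecans, was higher in Emb than in iPax7 by 1.15 on the log2 scale (SE 0.27, adjusted p 0.0119).

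Ncam1, known from neurons as well as muscle progenitors and regenerating fibres, was highest in Emb. Its Emb libraries were at 129.6, 261 and 238 CPM, against 35.8, 81.2 and 30.6 CPM in iPax3. The iPax7 libraries were at 41.2, 105 and 75.1 CPM, Fet libraries at 140.1, 108 and 129.6 CPM and Neo libraries at 72.5, 93.7 and 72.5 CPM. Emb overlapped with Fet but not with the other groups. All Fet libraries lay above all iPax3 libraries, a difference that did not pass but did under 9 of the 22 alternatives. Ncam1 was higher in Emb than in iPax3 by 2.09 on the log2 scale (SE 0.42, adjusted p 0.00323), a call kept under all 22 alternatives. It was higher in Emb than in iPax7 by 1.51 (SE 0.41, adjusted p 0.0256) and lower in Neo than in Emb by 1.4 (SE 0.41, adjusted p 0.0275). The first of these was lost without iPax7 replicate 1 or 3 and without Emb replicate 2 or 3, with an adjusted p of at most 0.0876. The second was lost without Emb replicate 2 or 3 and without Neo replicate 1 or 3, with an adjusted p of at most 0.0792. The 9 neural and Schwann cell markers summed to 401 to 552 CPM in Emb, 22.2 to 150.5 CPM in iPax3 and 113 to 440.2 CPM in iPax7, and their part in the Ncam1 level was not tested.

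Cdh15 is a cadherin at the contact between satellite cell and fibre. The iPax3 libraries were at 89.3, 63.0 and 87.3 CPM. The iPax7 libraries were at 184 and 234 CPM in replicates 2 and 3 but at 0.843 CPM in replicate 1, the library that was also low in Pax7. Emb libraries were at 18.2, 40.2 and 42.5 CPM, Fet libraries at 83.0, 52.7 and 40.9 CPM and Neo libraries at 1.06, 36.4 and 3.31 CPM. Emb and Neo lay below iPax3, and Neo overlapped with Emb. No pair passed: Neo was below iPax7 by 3.36 on the log2 scale (SE 1.35, adjusted p 0.0960) and below iPax3 by 2.55 (SE 1.30, adjusted p 0.172). Without iPax7 replicate 1 both passed, with log2 fold changes of -3.96 (adjusted p 0.0152) and -2.58 (adjusted p 0.0452). Both also passed without Neo replicate 2. Among 7 genes of cadherins and catenins, 3 were called between Neo and iPax3, against 22.6% of all genes. Cdh2 (N-cadherin) was lower in Neo by 4.47 on the log2 scale (SE 0.89, adjusted p 0.00272), with means of 16.1 and 364 CPM, and Ctnna1 was lower as well, while Cdh11 was higher.

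Vcam1 was at 368, 182 and 362 CPM in iPax3, with a mean of 304 ± 106 CPM (SD, n = 3). The iPax7 libraries were at 14.6, 85.6 and 135 CPM, again with replicate 1 the lowest. Emb libraries were at 41.4, 103 and 144 CPM, Fet libraries at 125, 240.1 and 174 CPM and Neo libraries at 110.1, 100.04 and 92.7 CPM. All iPax3 libraries lay above all iPax7, Emb and Neo libraries and overlapped with Fet. The test over the 5 groups gave an adjusted p of 0.0499, and no pair passed. Emb was below iPax3 by 1.66 on the log2 scale (SE 0.58, adjusted p 0.0605) and Neo by 1.59 (SE 0.58, adjusted p 0.0598). Without iPax7 replicate 1, these had adjusted p-values of 0.00781 and 0.00788. Leaving out iPax7 replicate 3 also brought both past the threshold, and leaving out Emb replicate 1 brought the Neo difference past it. A list of 6 genes held Vcam1's integrin partners and related adhesion ligands. Of these, Itga4 and Itga9, which pair with integrin beta chains to bind Vcam1, were higher in Emb than in iPax3, against 7.64% of all genes. Itga4 had means of 147 and 21.5 CPM and a log2 fold change of 2.78 (SE 0.65, adjusted p 0.00858), and Itga9 a log2 fold change of 2.79 (SE 0.70, adjusted p 0.0132). Itgb1 was lower in Emb by 1.27 on the log2 scale (SE 0.30, adjusted p 0.00919), where 9.34% of all genes were lower.

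Calcr was low, with a mean of at most 3.27 CPM in any group. It was at 2.38, 2.65 and 0.870 CPM in iPax3, on 33 to 136 counts. The only higher values were 9.71 CPM in Emb replicate 3 and 5.45 CPM in Neo replicate 1, while 4 libraries of the tissue groups had 0 counts. No pair passed for Calcr, and the adjusted p over the 5 groups was 0.611. Of the 8 genes listed with it (receptor partners, and the type V collagens that bind Calcr), 7 were tested. The type V collagens Col5a1 and Col5a3 were higher in Fet than in iPax3 by 4.07 (SE 0.48, adjusted p 4.76e-05) and 4.72 (SE 0.63, adjusted p 1.45e-04) on the log2 scale. Fibroblasts also make these collagens, and the fibroblast markers were higher in Fet, as given above, with their part not tested.

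A further list of 20 surface proteins of satellite cells and muscle progenitors was read beside the members. Between Emb and iPax3, 8 of 20 were called, 3 higher and 5 lower in Emb, against 17.0% of all genes (7.64% higher and 9.34% lower). Fzd7, a Wnt receptor, was higher by 2.64 on the log2 scale (SE 0.34, adjusted p 8.88e-05). The hyaluronan receptor Cd44 was lower by 7.06 (SE 0.97, adjusted p 2.48e-04), with means of 4.21 and 567 CPM. Between Neo and iPax3, 7 of 20 were called, 5 higher and 2 lower, against 22.6% of all genes. Fgfr1, a receptor for fibroblast growth factors, was higher in Neo by 2.00 on the log2 scale (SE 0.30, adjusted p 2.41e-04), and Cd9 by 3.41 (SE 0.56, adjusted p 4.47e-04). The members of the list lower in Neo were Cdh2, given above, and Megf10, which was named after its value was seen. Between Fet and iPax3, 3 of 20 were called, Fgfr1, Fzd7 and Tenm4, all higher in Fet, against 8.53% of all genes. The median log2 fold change of the list was -0.18 for Emb, 0.34 for Neo and 0.30 for Fet over iPax3, against -0.24, -0.20 and -0.03 over all genes.

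The genes whose log2 CPM followed each member most closely over the 15 libraries were taken among 10872 candidates by Pearson's r. These r are descriptions over libraries that share groups and depth. For Cd34 they were Lcp2, Olfml2a and the matrix proteoglycan gene Dcn (all r = 0.97), and for Cav1 the laminin gene Lamc1 (r = 0.97), Arhgap18 and Junb (both r = 0.96). For Chodl they were Pde3a (r = 0.94), Sncaip (r = 0.93) and Ptn (r = 0.92), and for Cdh15 Cap2 (r = 0.93), Synpo2l and BC067074 (both r = 0.90). Fzd2 (r = 0.93), Mpped2 and Sesn3 (both r = 0.92) were nearest to Ncam1, and Dapk2 (r = 0.92), Acat1 (r = 0.90) and Wisp1 (r = 0.89) to Cd82. Snx33 (r = 0.93), Zfand3 and Trip6 (both r = 0.91) were nearest to Sdc3, and Adipor1 (r = 0.92), Neat1 (r = 0.90) and Necap2 (r = 0.88) to Sdc4. Vcam1 and Calcr had no gene as close: their nearest were Slc30a4 (r = 0.83) and Srp14 (r = 0.78), and without iPax7 replicate 1 the r of Slc30a4 fell to 0.59.

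In single cells, 579 adult and 2931 iPax3 barcodes were kept as cells, with medians of 10765 and 11716 UMIs, and 1 barcode occurred among the cells of both. There was 1 library per sample, so no test was made, and intervals are exact 95% intervals that cover counting error only. In levels summed over cells, 8 of the 10 members were higher in adult than in iPax3 cells and Cdh15 and Sdc3 were not. Cd34 gave 1143 UMIs in the adult cells and 2 in the iPax3 cells, a ratio of 3009 in CPM (interval 831 to 24873). Chodl gave 1154 UMIs and 1 UMI, a ratio of 6075 (interval 1088 to 240158). These ratios rest on 1 or 2 UMIs in iPax3, and both genes were also the lowest of the iPax3 bulk libraries by length. Calcr was 32.0 times higher in adult cells (interval 20.7 to 51.6), Cav1 22.5 times (interval 20 to 25.4), Cd82 13.0 times (interval 12.2 to 13.8) and Sdc4 11.5 times (interval 10.9 to 12.1). Vcam1 was 7.63 times higher (interval 6.98 to 8.35) and Ncam1 6.10 times (interval 5.52 to 6.74). The adult level over the iPax3 level was 0.850 for Cdh15 (interval 0.767 to 0.939) and 0.702 for Sdc3 (interval 0.5 to 0.963). Some of these values depended on the limit on mitochondrial UMIs. With a limit of 5%, which left 563 adult and 805 iPax3 cells, Cdh15 was at 56.4 CPM in adult and 54.2 CPM in iPax3 cells, so its direction turned. The ratio was then 68.2 for Calcr and 9.34 for Ncam1, and Chodl had no UMI in the iPax3 cells. In the matrix labelled as a second iPax3 run, which holds the same barcodes, the ratios of Cd34 and Chodl were 1958 and 3234. That reading used 383 adult and 2931 iPax3 cells. Several ratios resting on more UMIs fell there below the intervals given above. They were 15.3 for Cav1, 9.63 for Cd82, 10.47 for Sdc4, 5.47 for Vcam1 and 0.578 for Cdh15. The ratios of Calcr (29.4), Ncam1 (5.85) and Sdc3 (0.794) stayed within their intervals, as did those of Cd34 and Chodl. The intervals do not cover such changes between matrices.

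The share of cells with a UMI was compared after thinning each cell to 5759 UMIs, which left out 104 adult and 247 iPax3 cells with fewer. Sdc4 was found in 96.8% of adult and 25.3% of iPax3 cells (98.3% and 46.2% unthinned). Cd82 was found in 92.8% and 19.9% (95.9% and 37.7% unthinned), and Cav1 in 62.7% and 4.30% (80.7% and 9.72% unthinned). Chodl was found in 56.7% of adult cells (74.8% unthinned) and in 1 iPax3 cell, and Cd34 in 56.4% (76.5% unthinned) and in 2 iPax3 cells. Vcam1, the sorting marker, was found in 51.8% and 10.7% (70.6% and 23.4% unthinned), and Ncam1 in 46.5% and 9.31% (64.6% and 19.8% unthinned). Calcr was found in 10.8% and 0.310% (20.6% and 0.819% unthinned). Cdh15 was nearly even, at 29.0% of adult and 31.1% of iPax3 cells (48.9% and 53.9% unthinned), and Sdc3 was at 2.76% and 4.23% (6.74% and 10.1% unthinned). In the matrix labelled as a second iPax3 run, Cdh15 was less even after the same thinning, at 29.4% and 43.1%. A UMI of at least 5 of the 10 members was found in 84.8% of adult and 4.09% of iPax3 cells at full depth.

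The adult shares may include free RNA, whose amount in the cell barcodes was not estimated. Adult barcodes with 1 to 100 UMIs, which hold mostly free RNA, had 674 CPM of Sdc4, against 627 in cells. They had 159 of Cd34 against 145 in cells, and 195 of Chodl against 146. These CPM give the make-up of the free RNA and not its amount. The 85159 such adult barcodes held 491093 UMIs together, against a median of 10765 UMIs in a single adult cell. Pax7 had a UMI in 66.7% of the 51 cells of an endothelial-like cluster (median 8335 UMIs) that carried Cdh5 in 70.6% of cells. It was at 64.8% in a cluster led by Myod1 (176 cells, median 8665 UMIs). The source of the Pax7 UMIs in the endothelial-like cluster was not tested, and no doublet caller was run. Without an estimate of free RNA and doublets in the cell barcodes, the adult shares are not read as shares of expressing cells. In iPax3, Cdh15 had 36.0 CPM in barcodes with 1 to 100 UMIs against 66.5 in cells, and Sdc4 55.0 against 54.6. The 362166 such iPax3 barcodes held 2164067 UMIs together, against a median of 11716 UMIs in a single iPax3 cell. For the same reason, the iPax3 shares, also those at the greater depth below, are not read as shares of expressing cells either. The matrix labelled as a second iPax3 run held the same adult and iPax3 barcodes, with a median of 42580 UMIs for the iPax3 cells, so it is not a replicate. At that depth Cdh15 was in 95.6%, Sdc4 in 86.5%, Cd82 in 85.6% and Vcam1 in 70.7% of the same iPax3 cells, while Cd34 was in 0.341% and Chodl in 0.239%.

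**Figure D4:**
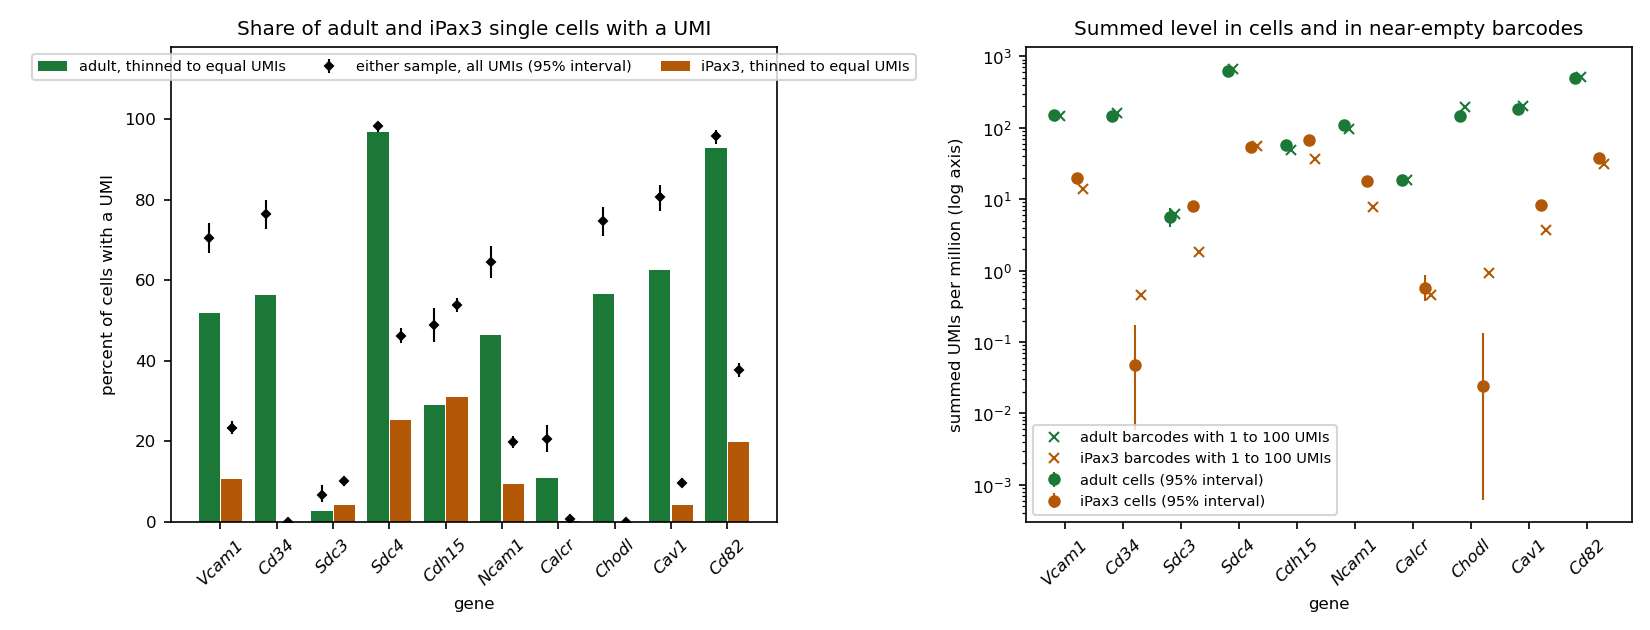
Left, percent of adult and iPax3 cells with a UMI of each member, as bars after thinning and diamonds at full depth with exact 95% intervals; right, CPM summed over cells (points, 95% intervals) and over barcodes of 1 to 100 UMIs (crosses) on a log axis. Adult bars exceed iPax3 bars for 8 members, and adult crosses lie close to the adult points.

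Among adult clusters built without the 10 members, levels differed for a few of them. Cav1 was at 454 CPM in the endothelial-like cluster and at 132 to 178 in the other 5. Cd34 was highest in a fibroblast-like cluster of 40 cells led by Ccl11, Plac9b, Thbs4 and Lum, at 261 against 126 to 193 elsewhere. Chodl was at 213 in a cluster of 112 cells led by Hes1 and heat shock genes, and at 73.0 and 80.7 in the endothelial-like and fibroblast-like clusters. Sdc3 was found in 9 of 21 cells of an immune-like cluster, 28.5 CPM, against 1.97 to 5.71 elsewhere. With a single adult library, these values describe that library.

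Among iPax3 cells, the shares of several members differed between clusters. Cluster 5 (596 cells) was led by the contractile genes Myl4, Neb and Myl1, and cluster 6 (132 cells) by Myod1 and Myog. After thinning, Myog had a UMI in 85.6% and 78.5% of their cells, against 17.7% to 20.6% in clusters 1, 2 and 4. Cdh15 was found in 47.2% and 47.0% of the cells of clusters 5 and 6, against 25.4% to 28.3% in clusters 1, 2 and 4. Cd82 was found in 37.9% of cluster 6 and in 14.9% to 23.5% of the others. Vcam1 went the other way, at 7.77% and 5.93% in clusters 5 and 6 against 11% to 12.4%. Sdc4 was lowest in cluster 5, at 17.7%, and at 23.7% to 30.3% in the others, of which cluster 1, led by Krt18 and Krt8, was the highest. Cluster 3 held 11 cells and is left out of these ranges. Clusters of 1 library are not replicates, and no test was made.

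**Figure D5:**
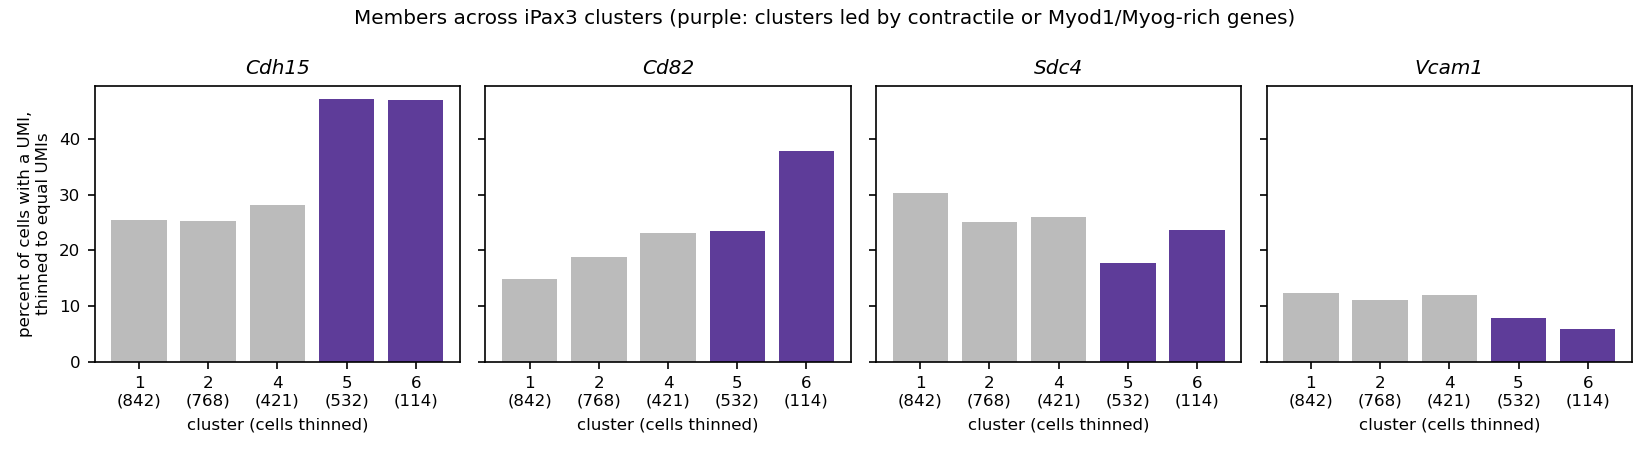
Percent of iPax3 cells with a UMI of Cdh15, Cd82, Sdc4 and Vcam1 after thinning to equal UMIs, by cluster, with the number of cells thinned under each bar; purple bars are the clusters led by contractile genes (5) or by Myod1 and Myog (6). Cdh15 is found in 47.2% and 47.0% of those clusters, above the grey bars, and Vcam1 in a smaller share than in the grey bars.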

How the data were processed

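The data were 15 bulk RNA libraries plus droplet single-cell libraries. Per the submitters' processing notes, the tools included CASAVA 1.8, HISAT2 2.0.2, Subread featureCounts 1.4.6 and Cell Ranger 2.2.0, with the mm10 build. The authors deposited read counts per gene and UMI counts for every barcode. Their strand setting and annotation release were not given in the sources used here. The authors' deposited single-cell comparison tables were not used. Gene symbols came from the single-cell gene files and positions from GENCODE M21.

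Counts were filtered with filterByExpr (17571 genes), scaled by TMM, and modelled over all 15 libraries by robust quasi-likelihood with edgeR 4.0.16 under R 4.3.3. The 10 pairs and a test over all 5 groups were adjusted by the Benjamini-Hochberg method, with 0.05 as threshold. Every adjusted p comes from this test unless another tool is named. CPM divide by the TMM-scaled library size. Log2 CPM used a prior count of 2. Alternatives were RLE scaling, no filter, a replicate block, 2 groups alone, DESeq2 1.42.0 and leaving out each library. Fits without the Neo libraries, with and without iPax7 replicate 1, and the reading of the second iPax3 matrix were chosen after seeing the data. The models were tested on simulated data.

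A barcode was kept as a cell when its UMIs reached 10% of the 99th percentile among the top 3000, were not under 500, and were mitochondrial for less than 10%. No doublet caller was run, and leaving out the 5% of cells with most UMIs was an alternative. Intervals are exact (Clopper-Pearson or Poisson) and cover counting error only. Clusters came from scanpy 1.11.5 (2000 variable genes without the members, 20 components, 15 neighbours, Leiden resolution 0.5).

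The 10 members and all lists were chosen with earlier results of these data known. Named genes were the members, the 3 genes per member with the highest Pearson's r among tested genes of at least 5 CPM, at most 4 genes of each list by smallest adjusted p (more for the members' own families), and Pax7, Pax3, Myf5, Myod1 and Myog as checks of the labels.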

Additional observations from a re-analysis of the deposited data

How the results depend on the processing

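No called fold change of a member changed direction under any alternative run. Of the 29 called combinations of member and pair, 14 passed in every alternative that gave an adjusted p for them. DESeq2 gave values for 26 of the 29 and none for the calls of Chodl. The fits without the Neo libraries gave none for pairs with Neo. RLE scaling kept all 29, although it moved the list genes' log2 fold changes by a median of 0.246 in Neo against iPax3 and by 0.168, 0.146, 0.141 and 0.102 in Neo against iPax7, Neo against Emb, Fet against iPax3 and Neo against Fet. Without the low-count filter, 3 members passed for Emb against iPax3 (7.95% of all genes) and 4 over the 5 groups (22.2%). With the 2 groups alone, the counts, each with the share of all genes called in that fit, were 2 for Emb against iPax3 (17.5%), 0 for Emb against iPax7 (1.63%; in the full data 4 members at an unadjusted p under 0.05 and 4 by DESeq2), 7 for Fet against iPax3 (38.1%), 1 for Fet against iPax7 (6.04%), 1 for Fet against Emb (2.11%) and 5 for Neo against iPax3 (34.8%). Same-numbered libraries did not deviate together (correlation of residuals -0.331 to 0.0767 over 30 pairs), so the numbers were not taken to pair them. With the replicate block, 1 member passed for Fet against iPax7 (2.92% of all genes) and 27 of the 29 calls were kept. DESeq2 gave 4 for Neo against iPax7 (27.0%). Without the Neo libraries, 1 passed for Fet against iPax7, Cd34 (3.38% of all genes). Without iPax7 replicate 1 as well it was again 1, but Cdh15, lower in Fet (3.77%). Over the remaining groups 4 passed without the Neo libraries (19.3%) and 8 without iPax7 replicate 1 as well (25.3%). The causes were not tested.

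Counts of members with 1 library left out follow, with the range of the share of all genes called. Over the 5 groups, 4 to 8 members passed (20.2% to 39.9% of all genes). For iPax7 against iPax3 it was 0 to 0 (0.016% to 0.216%). For Emb it was 3 to 6 against iPax3 (7.93% to 27.1%) and 3 to 4 against iPax7 (6.88% to 25.7%). For Fet it was 2 to 5 against iPax3 (3.32% to 10.6%) and 1 to 3 against iPax7 (1.9% to 4.4%). Between Fet and Emb it was 2 to 3 (1.26% to 15.2%). For Neo it was 3 to 5 against iPax3 (10.7% to 25.9%) and 2 to 3 against iPax7 (10.8% to 21.4%). Between Neo and Emb it was 3 to 5 (13.6% to 25.9%), and between Neo and Fet 1 to 2 (0.465% to 4.06%). The number of members with a larger share in adult cells was 8, and 9 with a mitochondrial limit of 5%, where Cdh15 turned to higher in adult cells (29.0% against 27.0%). Precision was lowest for values resting on few counts, such as Calcr with 2 counts over the 3 Fet libraries.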
